A study of Mus musculus with 48 samples.

Results

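Cytoplasmic ribosomal protein genes encode the proteins of the small (40S) and the large (60S) ribosomal subunit. They were followed here through mouse gonadal somatic cells (GSCs), through embryonic stem cells (ESCs) under induction into GSC-like cells (GSCLCs), and through single cells of that induction. Members were taken by symbol, as Rpl or Rps followed by a digit and as Rplp0 to Rplp2, without the Rps6k kinases and without names holding "-ps". The rule found 88 of the 22173 genes in the count table of the stages, 82 of 13682 genes in the FPKM table and 85 of 32285 gene IDs in the 10x table. Of the 88, 43 encode proteins of the 60S body, 3 form the P stalk of the 60S subunit and 30 encode 40S proteins. A further 11 are paralogs or retrocopies, and Rps19bp1 encodes a protein that binds Rps19.

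The study asked which compounds turn female ESCs into cells like the GSCs of E12.5, and 40 of its 48 samples were used here. All samples carry the strain label C57BL/6. The stages were GSCs of female gonads at E12.5, E13.5 and E16.5 and somatic cells of the ovary at 6 weeks (P6w), with 2 libraries each. The methods detail the removal of germ cells with SSEA1 beads for E12.5 gonads, and magnetic sorting is also named for the E13.5 gonads of a single-cell experiment. Nothing in the labels says how many animals were pooled. The induced cells came from female ESCs, and feeder cells were removed by their adherence before induction. SSEA1-positive cells were taken out of induced cultures before aggregation, and the labels do not say whether the sequenced cells were sorted in this way. Con cells were left without compounds, Vc cells received vitamin C, AM580 cells received AM580, a synthetic agonist of the retinoic acid receptor alpha, and V580 cells received both. Con, Vc, AM580 and V580 were sampled at 24 h and 48 h with 2 libraries per group. V580 cells of day 4, 6, 8 and 10 (V580_D4 to V580_D10) and cells separated from female E12.5 gonads in the same FPKM table (E12.5_GC) had 3 libraries each. The labels of E12.5_GC do not say whether germ cells were removed. V580_D6 also had 1 10x sample. The paper reports that the single-cell sequencing of these cells was replicated. Whether the barcodes of this sample come from a single run or were pooled from several is not stated in its labels. The labels do not say whether libraries of a group came from separate cultures or animals, so p values measure the spread between these libraries, which may be technical.

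Every ribosome carries 1 copy of nearly every ribosomal protein, and cells therefore make these proteins in step. Their mRNAs are short and abundant and begin with a tract of pyrimidines, the 5′ terminal oligopyrimidine (TOP) motif, through which mTORC1 and Larp1 control their translation. The P stalk proteins Rplp0, Rplp1 and Rplp2 recruit translation factors, and Rpl5 and Rpl11 bind Mdm2 when ribosome assembly is disturbed. Most mammalian ribosomal proteins have a single functional gene and many processed copies in the genome, but a few have paralogs that tissues use differently, such as Rpl22l1 beside Rpl22, and Rpl10l, Rpl39l and Rpl3l, which are known from the male germ line and striated muscle.

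The start of the mRNA is shown first, since the TOP motif is defined there. RefSeq (GRCm38.p6) held promoter entries for 67 of the 88 members, with 79 starts. The windows run 5′ to 3′ on the strand of the gene, with 20 bases before the start and 20 from it, and capitals mark the run of pyrimidines at the start where it opens with C and goes on for at least 4 more. The windows are examples chosen after the values were seen, 6 canonical members of both subunits and the stalk with such a run and 3 paralogs without it that are described below.
Rps6: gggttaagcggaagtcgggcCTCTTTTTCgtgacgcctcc
Rps18: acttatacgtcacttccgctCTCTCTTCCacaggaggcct
Rps27: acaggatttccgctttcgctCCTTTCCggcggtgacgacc
Rpl28: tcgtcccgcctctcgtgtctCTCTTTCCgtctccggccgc
Rpl38: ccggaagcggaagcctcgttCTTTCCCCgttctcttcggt
Rplp2: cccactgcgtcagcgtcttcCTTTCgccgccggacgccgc
Rpl22l1: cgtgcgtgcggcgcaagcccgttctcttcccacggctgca
Rpl39l: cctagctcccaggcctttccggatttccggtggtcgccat
Rpl10l: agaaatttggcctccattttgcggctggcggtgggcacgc
These lie at chr4:86857348-86857387 (minus strand, Rps6), chr17:33955646-33955685 (minus, Rps18), chr3:90213629-90213668 (minus, Rps27), chr7:4792945-4792984 (plus, Rpl28), chr11:114668560-114668599 (plus, Rpl38), chr7:141447631-141447670 (plus, Rplp2), chr3:28805488-28805527 (plus, Rpl22l1), chr16:10170208-10170247 (plus, Rpl39l) and chr12:66284382-66284421 (minus, Rpl10l). A pyrimidine run of this form stood at 15 of the 79 member starts (19%) and at 823 of 32851 starts of all genes (2.51%). It stood at 13 of 66 starts of canonical members (19.7%) and at 2 of 13 of the paralogs, retrogenes and Rps19bp1 (15.4%), so most starts in either class lack it. In entries of 300 bases, CGGAAG on either strand, the core of sites for ETS factors, was found at 58.2% of member starts and 16.9% of all starts. CTTTCC on either strand was found at 49.4% and 26.6%. The annotated start decides whether the run is seen, because a start placed 1 base off can hide it. In the window of Rpl22l1 a run of pyrimidines begins 1 base after the annotated start, but it opens with T.

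Total counts per library of the stages ran from 12694769 to 22259044. The E16.5 libraries differed most from each other, with a chi-square of 40.5 per degree of freedom over genes against 6.29 to 7.23 at the other stages, and they were sequenced on different lanes by their labels. In the FPKM table the E12.5_GC libraries stood furthest apart, at 62.6 against 1.85 to 8.74 in the other groups, with counts estimated from FPKM. The gonadal genes Wt1 and Amhr2 were at 588 and 602 CPM and at 753 and 774 CPM in the E12.5_GSC libraries. Foxl2, the factor of female supporting cells, was at 19.4 and 21.1 CPM at P6w and between 15.7 and 27.6 FPKM in E12.5_GC, but between 3.01 and 3.34 FPKM in V580_D6 and at most 0.422 FPKM in every library of 24 h and 48 h.

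Some members share reads with near copies, which limits what their values mean. Rpl37 and its retrocopy Rpl37rt had the same count in each of the 8 stage libraries, and Rps27 and Rps27rt, Rps4x and Rps4l, and Rpl36a and Rpl36al are also near copies. In the FPKM table, 4 members stood under 25 FPKM at V580_D6 although the 10x data of the same day put them above 1000 CPM, the UMIs of a gene scaled to the total of all cells. These were Rpl24 (0.956 FPKM and 3289 CPM), Rps10 (1.14 FPKM and 4135 CPM), Rpl13a (17.1 FPKM and 3347 CPM) and Rpl21 (21.0 FPKM and 3466 CPM), and the limits were set after the values were seen. FPKM is per transcript length and 10x CPM is not, and the 2 scales are set side by side only to show these gaps.

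The members together took 6.72% and 6.17% of all counts in E12.5_GSCs. The share was 9.98% and 9.86% in E13.5_GSCs and 6.63% and 5.91% in E16.5_GSCs, and it was 4.11% and 4.48% in P6w cells. Both E13.5 libraries lay above all others, both P6w libraries lay below all others, and E12.5 and E16.5 overlapped. In the FPKM table the share of the summed FPKM was 14.6% ± 0.0752 (SD, n = 3) at V580_D4 and 12.2% ± 0.163 at V580_D6. It was 14.4%, 13.9% and 13.7% in the V580_D8 libraries and 17.0%, 15.6% and 17.1% in those of V580_D10. The 3 E12.5_GC libraries held 14.4%, 17.7% and 12.3%, a spread as wide as the whole course of V580. Con cells held 15.2% ± 0.444 (SD, n = 2) at 24 h and 17.4% ± 0.359 at 48 h, and the libraries of the treated groups lay between 14.2% and 15.3% at 24 h and between 16.4% and 17.2% at 48 h. In bulk samples, fewer cells of a type and less RNA per cell cannot be told apart.

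**Figure D1:**
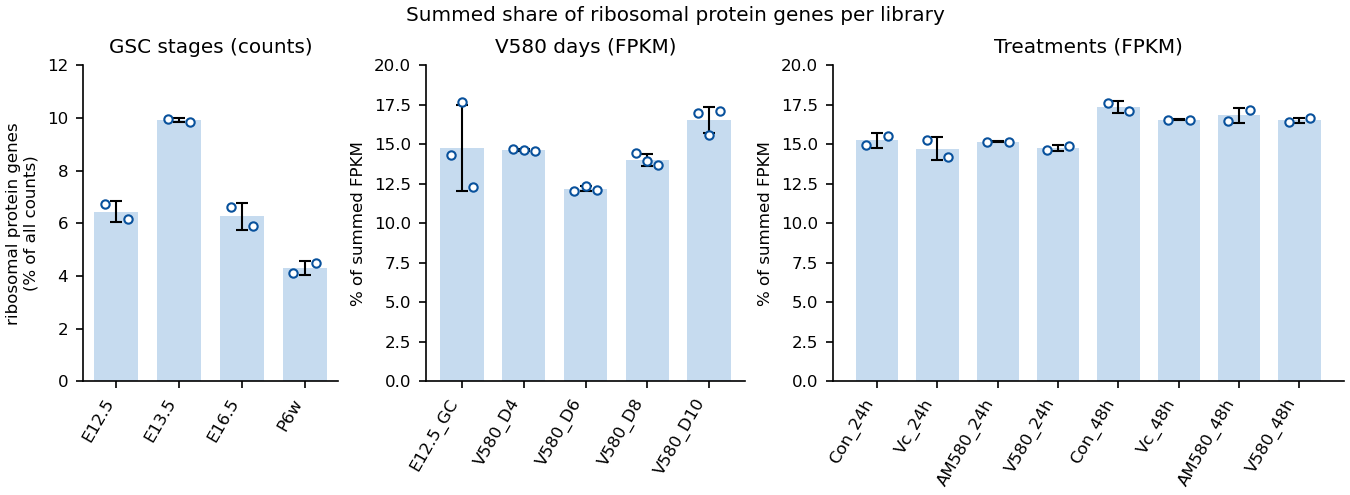
Share of ribosomal protein genes in each library, as percent of all counts (stages, left) or of the summed FPKM (V580 days and E12.5_GC, centre, and treatments, right). Bars are group means, error bars are SDs and circles are libraries. E13.5 is highest among the stages (9.98% and 9.86%), V580_D6 is the lowest of the V580 days (12.2% on average), and the E12.5_GC libraries range from 12.3% to 17.7%.

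Between E12.5 and E13.5 the family rose nearly as a whole. Of 87 members tested with edgeR (quasi-likelihood, called at a Benjamini-Hochberg adjusted p below 0.05), 85 were called higher at E13.5, where 45.9% of all 16398 genes tested were called and 23.8% were called higher. The median log2 fold change of the members was 0.95, beside 0.025 over all genes. All 30 genes of the 40S proteins and all 46 of the 60S proteins with the P stalk were among the 85, with medians of 0.96 and 0.93. At least 2-fold rises were called for 36 members, where 17% of all genes were called at that size. The 2 members without a call were the retrocopy Rpl32l (log2 fold change 1.39, adjusted p = 0.102) and Rpl39l (0.73, adjusted p = 0.524), both with few counts.

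The largest rises that met the rule for named genes were those of the 40S genes Rps29 and Rps27 and of the stalk gene Rplp1. Rps29 was at 110 and 110 CPM at E12.5 and at 225 and 262 CPM at E13.5, a log2 fold change of 1.48 (SE 0.13, edgeR adjusted p = 2.5e-06). Rps27 was at 296 and 286 CPM and then at 584 and 617 CPM (1.37, adjusted p = 4.16e-06). Rplp1 was at 751 and 708 CPM and then at 1470 and 1501 CPM (1.36, adjusted p = 2.73e-06). The rule admits only genes without overlap between the groups, so the lack of overlap in these 3 genes was fixed by it. CPM are taken on library totals without TMM, and on that scale levels at E13.5 stood at about 2 times those at E12.5. The log2 fold changes include TMM and are larger. Smaller rises were those of Rpl7l1, the paralog of Rpl7 (0.38), of Rpl4, a 60S protein at the exit tunnel (0.51), and of the Mdm2-binding Rpl5 (0.60). Rpl5 went from 1856 and 1756 CPM to 2243 and 2129 CPM. Rpl11, the partner of Rpl5 in the 5S particle, went from 573 and 544 CPM to 820 and 810 CPM (0.87).

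Ribosomal protein mRNAs are short, and fold changes between these stages ran with transcript length. Across the 16169 tested genes with a known length, Spearman's rho between length and log2 fold change was -0.53 for E13.5 against E12.5, and it was -0.56 across the members, which share libraries and are not independent. With a smooth length term per library in the edgeR model, 35 members were called higher at E13.5, the median fell to 0.25, and 28.9% of all genes were called. Rps29, Rps27 and Rplp1 kept their calls, at 0.72, 0.66 and 0.56. Rps6, Rpl7 and Rpl10 went to -0.022, -0.028 and -0.077 and were no longer called. The part of length in the rise was not tested beyond this. Scaling mattered as well, since TMM placed the log2 fold changes 0.33 above those from library totals, an alternative added after the values were seen. With library totals, 72 members were called higher with a median of 0.62, 12.9% of all genes were called higher and 35.6% lower, and the median over all genes was -0.30.

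**Figure D2:**
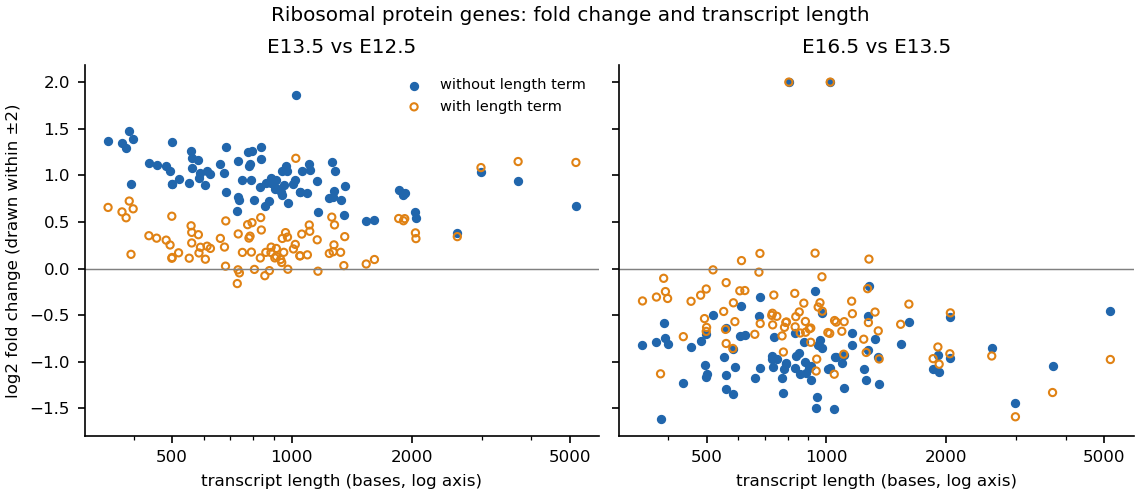
log2 fold change (vertical axis, drawn within ±2) of each ribosomal protein gene against its transcript length in bases (log axis), for E13.5 against E12.5 and E16.5 against E13.5. Filled points come from the edgeR model without and open points from the model with a length term per library. At E13.5 the short transcripts rise most, and the term lowers the median from 0.95 to 0.25. At E16.5 it moves the median from -0.95 to -0.57.

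From E13.5 to E16.5 the family went back down. Of the 87 members, 82 were called lower and 2 higher, where 54.1% of all genes were called and 25.4% called lower, and the median log2 fold change was -0.95 beside 0.057 over all genes. At least 2-fold, 37 were called lower and 2 higher, where 26.1% of all genes were called. All 46 genes of the 60S proteins and 28 of 30 genes of the 40S proteins were called lower. The exceptions among the latter were Rps23 (-0.24, adjusted p = 0.0924) and Rps25 (-0.19, adjusted p = 0.178). The 2 members called higher were the paralogs Rpl10l and Rpl39l. With the length term 66 members were called lower and 2 higher, with a median of -0.57 and 48.9% of all genes called. With library totals 71 were called lower and 2 higher, with a median of -0.68. There 55.3% of all genes were called, 38.1% higher and 17.2% lower.

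The members below were those that fell most by the rule for named genes. Rpl36, a 60S protein, fell from 647 and 685 CPM to 307 and 217 CPM (log2 fold change -1.61, SE 0.14, edgeR adjusted p = 5.51e-07). Rpl13a, a 60S protein known also for translational silencing in inflammation, was at 1197 and 1189 CPM and then at 547 and 464 CPM (-1.51, adjusted p = 2.16e-07). Rps4l, the retrocopy of Rps4x, was at 304 and 297 CPM and then at 119 and 137 CPM (-1.49, adjusted p = 6.04e-07). In all 3 the stages did not overlap, as the rule for named genes required. The first E16.5 library lay above the second for Rpl36 and below it for Rps4l. Rplp0, the anchor of the P stalk, fell from 4464 and 4555 CPM to 2513 and 2078 CPM (-1.24), while Rpl39 at the exit tunnel fell by 0.40 on the log2 scale and was at 0.085 with the length term. Without the second E16.5 library the median over the members was -0.81.

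The adult ovary stood below the embryonic gonad. By the labels, all E12.5 and E13.5 libraries came from lane 5 and both P6w libraries from lane 1. Age and lane therefore cannot be told apart outside the E16.5 libraries. At P6w, 59 of 87 members were called lower than at E16.5 and 2 higher, where 56.1% of all genes were called and 29.8% called lower, with a median log2 fold change of -0.56 beside -0.039 over all genes. The 40S genes had a median of -0.71, with 25 of 30 called lower, and the 60S genes a median of -0.50, with 27 of 46 called lower and 1 higher. The difference between the subunits was not tested. The 2 members called higher were Rpl4, from 1748 and 1524 CPM to 1860 and 1910 CPM (0.37, adjusted p = 0.0111), and Rpl7l1, from 93.9 and 105 CPM to 131 and 133 CPM (0.57, adjusted p = 0.00107). With library totals 1 member was called higher and 71 lower, where 56.3% of all genes were called, 21.1% higher and 35.3% lower. With the length term 9 members were called higher and 33 lower, where 60.1% of all genes were called, and Rps6 went from -0.06 to 0.31.

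Set against E12.5 over the whole span, 57 members were called lower at P6w and the remaining 30 were not called, where 52.9% of all genes were called and 27.5% called lower. The median log2 fold change was -0.52 beside -0.041 over all genes. Rps10, a 40S protein at the mRNA entry side, went from 280 and 235 CPM to 82.3 and 87.8 CPM (-1.37, SE 0.20, edgeR adjusted p = 3.88e-05). Rps19, the 40S protein mutated most often in Diamond-Blackfan anemia, went from 880 and 782 CPM to 411 and 483 CPM (-0.67, adjusted p = 0.000588). Both P6w libraries lay below both E12.5 libraries in each case, which the rule for named genes required of Rps10. Rps4x, the main copy, was at 5148 and 4877 CPM at E12.5 and 3840 and 4136 CPM at P6w, with a log2 fold change of -0.10 that missed the call (adjusted p = 0.486). A lane term was possible only because 1 E16.5 library shared a lane with each neighbour, and the E16.5 libraries differed most from each other. The term left 33 members called for this comparison and a median of -0.36.

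**Figure D3:**
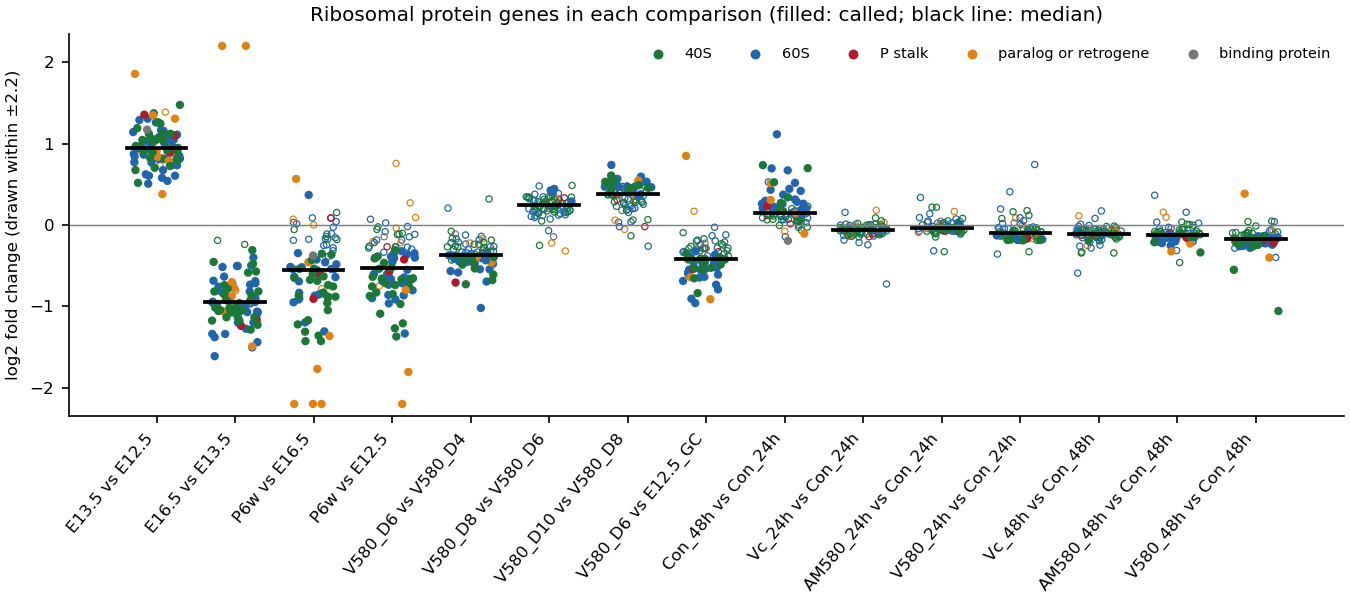
log2 fold change (vertical axis, drawn within ±2.2) of every tested ribosomal protein gene in the 15 comparisons, coloured by class. Filled points were called at an adjusted p below 0.05 (edgeR for the stages, limma for FPKM), open points were not, and black lines are medians. The medians are 0.95 and -0.95 for the first 2 comparisons, and those of the treatments lie between -0.18 and -0.040.

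By their medians, other gene groups moved with the family at some steps and apart from it at others. Of all genes, 45.9% were called at E13.5 (23.8% higher, 22.1% lower) and 54.1% at E16.5 (28.7% higher, 25.4% lower). At P6w against E16.5 the share was 56.1% (26.3% higher, 29.8% lower), and with the length term it was 28.9% at E13.5 and 48.9% at E16.5. The biogenesis list was called about as often as all genes at E13.5, as was the mitochondrial list at P6w in either direction. Of 78 genes of mitochondrial ribosomal proteins, which form another ribosome, 74 were called higher at E13.5 (median 0.84) and 72 lower at E16.5 (-0.98), but at P6w 36 were called higher and 5 lower than at E16.5 (0.31). Of 44 genes of ribosome biogenesis, such as Ncl, Npm1 and Fbl, 11 were called higher and 7 lower at E13.5 (0.083) and 6 higher and 23 lower at E16.5 (-0.38). Of 20 translation factors and other TOP mRNAs, 10 were called higher and 3 lower at E13.5 (0.45) and 12 lower and 1 higher at E16.5 (-0.55). In the model with the length term, 32 genes of the mitochondrial list were called higher at E13.5 (0.28) and 66 lower and 2 higher at E16.5 (-0.70). The biogenesis list then had 9 higher and 7 lower (0.040), and 27 lower and 3 higher (-0.52). The TOP list had 4 higher and 5 lower at E13.5 (0.088), and 12 lower and 1 higher at E16.5 (-0.37). Without that term the ribosome biogenesis list had a smaller median than the ribosomal protein genes at E13.5, a difference that was not tested.

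Markers of other cells moved with the same stages. The summed level of 8 erythroid genes ran from 10953 to 31014 CPM in the 6 embryonic libraries, with both E13.5 libraries highest at 31014 and 28789 CPM, and was 253 and 279 CPM at P6w. The summed level of 8 hepatocyte genes was 114 and 110 CPM in E13.5_GSCs and 120 and 131 CPM in P6w cells, and at most 5.33 CPM in the libraries of E12.5 and E16.5. The summed level of 6 germ cell genes was highest at E16.5, at 67.3 and 70.7 CPM, and between 5.67 and 22.6 CPM in the other libraries. The erythroid and hepatocyte sums were thus higher at E13.5 than at E12.5 and lower again at E16.5, as the members were. Their part in these results was not tested.

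Among the paralogs, Rpl10l and Rpl39l departed from the family at E16.5, where others such as Rps4l fell with it. Rpl10l, an autosomal retrogene of the X-linked Rpl10 that takes over in male meiosis, had 3 and 3 counts in E12.5_GSCs, 10 and 10 in E13.5_GSCs, 225 and 194 in E16.5_GSCs, and 2 and 0 in P6w cells. That is 10.7 and 12.3 CPM at E16.5 and at most 0.506 CPM in every other library, and the rise at E16.5 had a log2 fold change of 4.31 (SE 0.41, edgeR adjusted p = 1.1e-06). Rpl39l, the paralog of Rpl39 used by spermatids, had 29 and 20 counts at E16.5, or 1.38 and 1.26 CPM, against 0.154 to 0.313 CPM in the other 6 libraries (2.32 against E13.5, adjusted p = 0.0112). Both genes peaked in the 2 libraries where the germ cell sum was highest. Rpl10 itself was at 1055 and 708 CPM at E16.5 and Rpl39 at 135 and 106 CPM, so the paralogs stayed far below their partners. Rpl3l, the muscle paralog of Rpl3, was at or below 0.512 CPM in all 8 libraries and was not tested.

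The paralogs Rps4l and Rpl22l1 were lower by 6 weeks. Rps4l fell from 224 and 213 CPM at E12.5 to 5.78 and 7.48 CPM at P6w, a log2 fold change of -4.81 (SE 0.17, edgeR adjusted p = 5.66e-12), and with the length term it was -4.79. The annotation lists Rps4l as a transcribed processed pseudogene. Rpl22l1, the paralog whose protein can replace Rpl22 in the ribosome, was at 93.4 and 95.2 CPM in E12.5_GSCs and 127 and 156 CPM in E13.5_GSCs. It was at 96.7 and 79.3 CPM in E16.5_GSCs and 21.6 and 24.4 CPM in P6w cells. Its fall between E12.5 and P6w was -1.81 (SE 0.14, adjusted p = 5.31e-08), beside -0.40 for Rpl22 itself, which went from 169 and 154 CPM to 105 and 104 CPM. By contrast Rps27l, a p53 target beside Rps27, was at 49.0 and 49.8 CPM at E12.5 and 46.6 and 55.3 CPM at P6w and missed the call (0.27, adjusted p = 0.109), while Rps27 fell from 296 and 286 CPM to 126 and 145 CPM (-0.87, adjusted p = 5.64e-05). Rpl7l1 also ended near its start, at 138 and 152 CPM and then 131 and 133 CPM (0.091, adjusted p = 0.549).

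**Figure D4:**
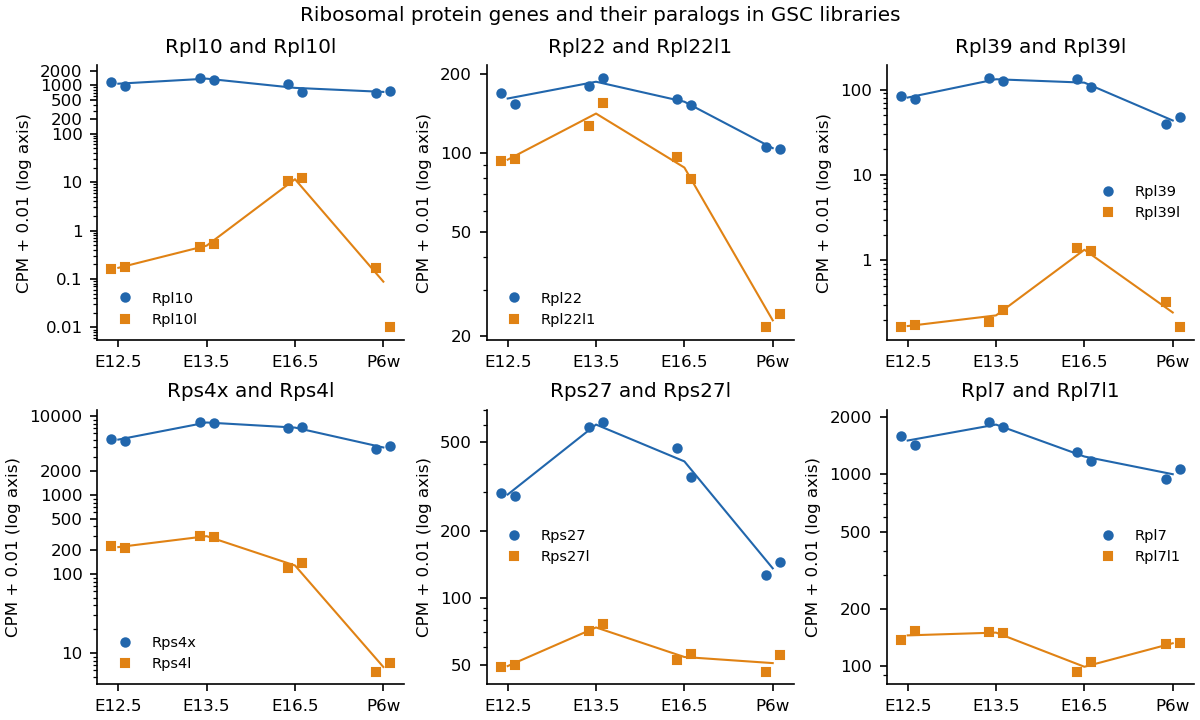
Levels of 6 ribosomal protein genes (blue circles) and their paralogs (orange squares) in the 8 GSC libraries, as CPM plus 0.01 on a log axis, with lines through the stage means. Rpl10l reaches 10.7 and 12.3 CPM at E16.5 only, Rps4l drops to 5.78 and 7.48 CPM and Rpl22l1 to 21.6 and 24.4 CPM at P6w, and Rpl7l1 and Rps27l end near their E12.5 levels.

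Under V580 the median of the family was lower at day 6 than at day 4 and higher at each later step. Of 81 members tested with limma on log2(FPKM + 1), 32 were called lower at V580_D6 than at V580_D4, where 44.9% of all 11512 genes were called, 23% lower and 21.9% higher, and the median log2 fold change was -0.37 beside -0.0096 over all genes. At V580_D8 against V580_D6, 4 were called higher (41.1% of all genes called, 20.3% higher), with a median of 0.24. At V580_D10 against V580_D8, 32 were called higher (34.5% called, 19.5% higher), with a median of 0.38. The share of members called in either direction was thus below that of all genes at D6 and at D8. At D6 the share called lower was above that of all genes. The E12.5_GC libraries entered the same model and widened its spread. In a model of the 12 V580 libraries alone, added after the values were seen, 73 members were called lower at D6 (66.1% of all genes called), 56 higher and 3 lower at D8 (63.1%), and 68 higher and 1 lower at D10 (58.4%).

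The stalk gene Rplp1 showed the dip. It was at 2472, 2416 and 2260 FPKM at V580_D4, at 1461, 1470 and 1440 FPKM at V580_D6, at 2043, 1763 and 1713 FPKM at V580_D8, and at 2388, 2021 and 2448 FPKM at V580_D10. All 3 libraries of D6 lay below those of every other day, and the fall from D4 had a log2 fold change of -0.71 (SE 0.19, limma adjusted p = 0.00823). Rps12, a 40S protein of the beak, fell from 193, 196 and 229 FPKM to 122, 121 and 127 FPKM (-0.73, adjusted p = 0.00193). Rpl17, a 60S protein, fell from 560, 488 and 625 FPKM to 220, 468 and 197 FPKM (-1.02, adjusted p = 0.0257). For Rpl17 the second D6 library was more than 2 times as high as the others, and the gene varied as widely at D10, at 704, 417 and 281 FPKM.

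The members called at D8 were Rpl31, Rpl23, Rpl39 and Rpl22, all of the 60S subunit. Rpl31 was at 253, 257 and 256 FPKM at V580_D6, 341, 342 and 328 FPKM at V580_D8 and 485, 441 and 505 FPKM at V580_D10, without overlap between days (0.40, limma adjusted p = 0.0388, and then 0.50, adjusted p = 0.0162). Between D6 and D8 the rule for named genes required this. Rpl23 went from 237, 239 and 228 FPKM to 338, 301 and 308 FPKM (0.42, adjusted p = 0.0146). Rpl39 went from 144, 164 and 152 FPKM to 230, 206 and 191 FPKM (0.44, adjusted p = 0.0187). At least 2-fold, 0 members were called at D8 or D10, where 2.55% and 1.29% of all genes were called, and 1 (Rpl17) was called at D6 (5.08% of all genes). The largest rises at D10 were those of Rpl30, from 133, 130 and 114 FPKM to 207, 204 and 219 FPKM (0.74, adjusted p = 0.00196), of Rps14, a 40S protein of the platform, from 1097, 1006 and 975 FPKM to 1747, 1331 and 1636 FPKM (0.61), and of Rpl35a, from 99.5, 89.8 and 89.1 FPKM to 146, 128 and 148 FPKM (0.59). The days did not overlap for these 3 genes, as the rule for named genes required.

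Some members left the common course. Rps27l was at 209, 208 and 210 FPKM at V580_D4, 159, 155 and 163 FPKM at D6, 131, 129 and 122 FPKM at D8, and 168, 155 and 165 FPKM at D10. It thus went on down at D8 (-0.32), although that step missed the call in the model of 15 libraries (adjusted p = 0.0733) and passed it in the model of the V580 libraries alone. Rpl13a was at 25.4 ± 0.451 FPKM (SD, n = 3) at D4 and at 17.3, 14.4 and 15.3 FPKM at D10, with no return after D6, but its reads are in doubt in this table. Rplp0 was at 1358, 1177 and 1148 FPKM at D8 and 1305, 1040 and 1294 FPKM at D10, a difference of -0.02 that overlapped (adjusted p = 0.945).

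The calls between days rested on few libraries. For D6 against D4, leaving out any 1 of the 6 libraries left 16 to 19 calls. For D10 against D8, 7 calls were left without library 1 or library 3 of D10, 10 without library 2 and 8 without library 3 of D8. The 4 calls at D8 became 0 without library 1 of D8, 1 without library 1 or 3 of D6, and 2 without library 2 of either day. Of 44 ribosome biogenesis genes, 31 were called lower and 1 higher at D8 (median -0.31), 9 lower and 1 higher at D6, and 7 higher and 3 lower at D10, so that at D8 their median had the opposite sign to that of the ribosomal protein genes. Of all genes, 41.1% were called at D8 (20.9% lower), 44.9% at D6 and 34.5% at D10, so this list was called less often than all genes at D6 and D10. The summed level of 8 pluripotency genes was 212 to 238 FPKM at D4, 38.4 to 46.0 at D6, 34.1 to 46.4 at D8 and 21.7 to 30.4 at D10, and its part in these steps was not tested.

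Against the E12.5_GC cells of female gonads, most members called in V580_D6 were lower. Of 81 members, 47 were called lower and 1 higher, where 67% of all genes were called and 32% called lower. The share of members called in either direction was below that of all genes, but the share called lower was above that of all genes. The median log2 fold change was -0.42 beside 0.026 over all genes. With the length term 24 were called lower and 5 higher (71.3% of all genes called), the median was -0.12, and Rpl38 and Rps18 went to 0.34 and 0.045. Among the libraries, leaving out the second of E12.5_GC left 27 calls and a median of -0.20, and leaving out library 3 of that group gave 77 calls and a median of -0.61. Without library 1 of E12.5_GC 31 calls were left, and without library 1 or library 3 of V580_D6 27 and 31. The count of calls thus moved with single libraries of either group. The E12.5_GC libraries also held 1038 to 4435 FPKM of summed erythroid genes, against at most 0.282 in V580_D6, and its part was not tested.

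Rps27l was the member called higher, at 159, 155 and 163 FPKM in V580_D6 and at 97.7, 108 and 64.0 FPKM in E12.5_GC (0.85, SE 0.14, limma adjusted p = 6.22e-05). The 2 groups did not overlap, as the rule for named genes required, and the length term gave 1.35. Rpl22l1 was lower, at 32.2, 30.3 and 32.0 FPKM against 56.5, 80.4 and 48.1 FPKM (-0.91, adjusted p = 1.65e-05). Rpl7a, a 60S protein, was at 107, 115 and 105 FPKM against 235, 265 and 138 FPKM (-0.91, adjusted p = 0.000366). In all of these library 2 of E12.5_GC was the highest of its group and library 3 the lowest. The 44 ribosome biogenesis genes stood the other way, with 28 called higher in V580_D6 and 4 lower (median 0.37). Of all genes, 35% were called higher and 32% lower.

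In untreated cells the family shifted between 24 h and 48 h. Of 82 members, 36 were called higher and 2 lower at 48 h, where 66% of all 10644 genes were called and 32.4% called higher, with a median log2 fold change of 0.14 beside 0.0017 over all genes. Only Rpl17 was called at 2-fold or more, where 7.72% of all genes were. The share of members called in either direction was below that of all genes, but the share called higher was above that of all genes. Without the first Con_24h library 25 were called, and one model of all 31 FPKM libraries left 10, all higher. With the length term 64 were called higher and 2 lower (71.1% of all genes called). Of the 38 called, 26 of the 46 genes of the 60S proteins and 7 of the 30 of the 40S proteins were higher. Of 8 pluripotency genes, 7 were called lower and 1 higher at 48 h, with a median of -1.06. Their summed level went from 3814 and 4131 FPKM to 2322 and 2378 FPKM, and its part in this shift was not tested.

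Rps28, a small 40S protein at the mRNA exit, rose from 207 and 198 FPKM to 356 and 320 FPKM (0.73, SE 0.13, limma adjusted p = 0.000173). Rps29 rose from 520 and 461 FPKM to 861 and 734 FPKM (0.70, adjusted p = 0.000616). Rpl38, a 60S protein known for the translation of Hox mRNAs, rose from 406 and 401 FPKM to 682 and 605 FPKM (0.67, adjusted p = 4.08e-05). The times did not overlap for these genes, which the rule for named genes required of Rps28 and Rps29. Rpl17 had the largest fold (1.11, adjusted p = 0.00906), but its Con_24h libraries differed more than 2-fold, at 388 and 165 FPKM against 496 and 610 FPKM. The 2 called lower were Rps19bp1, from 50.6 and 47.4 FPKM to 43.2 and 42.2 FPKM (-0.19, adjusted p = 0.0334), and Rpl7l1, from 134 and 138 FPKM to 124 and 128 FPKM (-0.11, adjusted p = 0.0308). Neither is a core protein of the mature ribosome in the usual sense, since Rpl7l1 is known from the assembly of the large subunit and Rps19bp1 from the nucleolus.

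After 24 h of treatment the members changed little against Con. Limma called 0 of 82 for Vc, where 13.6% of all genes were called (7.57% higher and 5.98% lower), and 0 for AM580, where 14.8% were (7.69% higher and 7.16% lower). At an unadjusted p below 0.05 the counts were 9 and 0, without a share of all genes at that threshold to set beside them. For V580, 10 members were called lower, where 29% of all genes were called and 15.5% lower, with a median log2 fold change of -0.11. The medians for Vc and AM580 were -0.063 and -0.040, and those of all genes were between -0.014 and -0.0034. The 3 treatments were compared with the same 2 Con_24h libraries, and the second of these held a higher share of ribosomal protein genes than the first (15.6% against 14.9%). Without the second Con_24h library V580 had 0 calls and without the first 29, and without the first or second V580_24h library 3 and 1. In one model of all 31 FPKM libraries V580 had 0 calls as well. Without the first Vc_24h library Vc had 18 calls, and without the other libraries 1 or 2. AM580 had 1 call without either AM580_24h library or without the first Con_24h library. With the length term the calls were 1 higher and 16 lower for Vc (19.2% of all genes called) and 1 higher and 26 lower for V580 (34%).

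The members lowest in V580_24h by the rule were Rpl6, Rps4x and Rps2. Rpl6 was at 483 and 538 FPKM in Con and at 462 and 434 FPKM in V580 (-0.19, SE 0.06, limma adjusted p = 0.0242). Rps4x was at 827 and 928 FPKM and then at 774 and 763 FPKM (-0.19, adjusted p = 0.0197). Rps2, a 40S protein at the mRNA entry, was at 1797 and 1967 FPKM and then at 1649 and 1657 FPKM (-0.19, adjusted p = 0.0362). The V580 libraries lay below both Con libraries in each, as the rule required, and the Con libraries themselves differed from each other. For the same genes in the same order AM580 gave differences of -0.08, -0.10 and -0.06 and Vc -0.08, -0.11 and -0.15, none of them called.

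At 48 h more members were called. Vc had 1 called lower (12.4% of all genes called, 6.37% higher and 6.07% lower), AM580 21 lower (57% called, 31.2% lower) and V580 49 lower and 1 higher (57.1% called, 31.2% lower). The medians were -0.11, -0.12 and -0.18, and those of all genes were 0.00066, -0.028 and -0.023. The share of members called under AM580 was below that of all genes. The 3 comparisons share the 2 Con_48h libraries. Leaving out single libraries left 25 to 32 calls for V580, with 26 and 31 without the first and second Con_48h library and 25 and 32 without the first and second V580_48h library. For AM580 it left 6 and 13 without the first and second Con_48h library and 5 without the first AM580_48h library. The single call for Vc was lost without the first Con_48h library or without either Vc library. At an unadjusted p below 0.05 18 members were lower, again without a share of all genes at that threshold. One limma model of all 31 FPKM libraries left 0 calls for Vc, 0 for AM580, and 3 lower and 1 higher for V580. The length term gave 26 called lower for Vc, 39 lower and 1 higher for AM580, and 58 lower and 1 higher for V580, where 18%, 61.3% and 61% of all genes were called.

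The members named here at 48 h include paralogs and canonical genes. Rps27l was at 417 and 408 FPKM in Con_48h, 332 and 326 FPKM in AM580_48h and 310 and 314 FPKM in V580_48h (-0.33 and -0.40, SE 0.05 each, limma adjusted p = 6.06e-05 and 8.14e-06). In Vc_48h it was at 392 and 387 FPKM, below Con without a call (-0.08, adjusted p = 0.311). Rps2 was at 1802 and 1890 FPKM in Con_48h and 1556 and 1519 FPKM in V580_48h (-0.26, adjusted p = 0.00226). Rpl39 was at 300 and 289 FPKM and then at 245 and 239 FPKM (-0.28, adjusted p = 0.00861). Rpl38 was at 494 and 588 FPKM in AM580_48h (-0.25, adjusted p = 0.0475), below both Con libraries but with a wide gap between its own. Rpl7l1 was at 107 and 108 FPKM in AM580_48h (-0.23, adjusted p = 0.000235). Rps15a, a 40S protein, was the member called under Vc, at 118 and 111 FPKM in Con_48h and 99.7 and 101.5 FPKM in Vc_48h (-0.19, adjusted p = 0.0322).

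Rps27a had the largest fall under V580 at 48 h. Its product is a fusion of ubiquitin with a 40S protein. It was at 439 and 436 FPKM in Con_48h and at 152 and 289 FPKM in V580_48h (-1.06, SE 0.27, adjusted p = 0.00406). The 2 V580 libraries differed by nearly 2 times, and the gene varied as much under AM580, at 243 and 414 FPKM, and in V580_24h, at 379 and 242.2 FPKM. Rpl22l1 was the member called higher under V580, at 59.97 and 59.97 FPKM against 44.5 and 47.0 FPKM in Con_48h (0.38, SE 0.06, adjusted p = 6.77e-05). Its partner Rpl22 fell in the same cells, from 198 and 185 FPKM to 163 and 157 FPKM (-0.26, adjusted p = 0.00089). Neither pair of groups overlapped, which the rule for named genes required of Rpl22l1. Under AM580 Rpl22 also fell (-0.20, adjusted p = 0.00672), and Rpl22l1 was at 48.8 and 49.0 FPKM, without a call (0.10, adjusted p = 0.184). At V580_D6 Rpl22l1 was at 30.3 to 32.2 FPKM, in another experiment of the same table.

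The ribosome biogenesis genes were mostly lower at 48 h under AM580 and V580. Of all genes, 31.2% were called lower under AM580, 31.2% under V580 and 6.07% under Vc. All 44 biogenesis genes were called lower under AM580 (median -0.36) and 42 under V580 (median -0.34), and 8 under Vc (-0.092), and the differences from the ribosomal protein genes were not tested. Of the 20 translation factors and other TOP mRNAs, 13 were called lower and 1 higher under AM580 and 15 lower under V580. Of 76 genes of mitochondrial ribosomal proteins, 52 were called lower under AM580, and 34 lower and 2 higher under V580. The summed level of 8 pluripotency genes was 2322 and 2378 FPKM in Con_48h, 2844 and 3018 in AM580_48h and 2421 and 2323 in V580_48h, and the hepatocyte sum was 51.1 and 54.5, 38.3 and 40.1, and 35.6 and 30.6 FPKM. Their part in these differences was not tested.

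The family was also measured in single cells of V580_D6. The 10x table held 15412 barcodes, of which 15315 were kept at 40% or less mitochondrial counts, in 11 clusters. The members took 28.0% of all UMIs (exact binomial 95% interval 27.99 to 28.00, which covers counting error only). With 1 sample there is no test between groups, and the clusters were drawn from the same cells, so the values below are descriptions. Clusters were named only where markers allowed it, as mesothelial-like (cluster 0), interstitial-like (cluster 1), extraembryonic endoderm-like (cluster 9) and neuron-like (cluster 10). Ribosomal protein genes were left out before the 2000 variable genes that drew the clusters were picked, and 5 entered where they were allowed.

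The share per cluster ran from 15.0% to 35.5%. It was 29.2% in the mesothelial-like and in the extraembryonic endoderm-like cells, 26.4% in the interstitial-like cells and 22.1% in the 76 neuron-like cells. Cluster 2, led by Mki67 and Cenpf of dividing cells, was at 27.5%, and cluster 3, led by Mal, Upk1a, Cldn3 and Stra8, at 27.3%. In 2 of the other settings of the clustering the extraembryonic endoderm-like cells fell into a deep and a shallow cluster. With the members kept among the variable genes, 895 of these cells were at 29.8% and 276, with a median of 2369 UMIs, at 14.05%. At a Leiden resolution of 1.0, 927 cells were at 29.8% and 335, with 2170 UMIs, at 15.7%. The extremes were shallow clusters. Cluster 7, led by S100g and Cited1, was at 35.5% with a median of 2207 UMIs per cell, and cluster 5 at 33.1% with 1460 UMIs. Cluster 6 was at 15.0% with 2028 UMIs and a median of 15.5% mitochondrial counts, beside 1.58% to 3.85% in the other clusters. The deep clusters 0, 1, 2, 3 and 9, with medians of 12135 to 19343 UMIs, lay between 26.4% and 29.2%. The part of depth and of mitochondrial counts in the extremes was not tested.

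**Figure D5:**
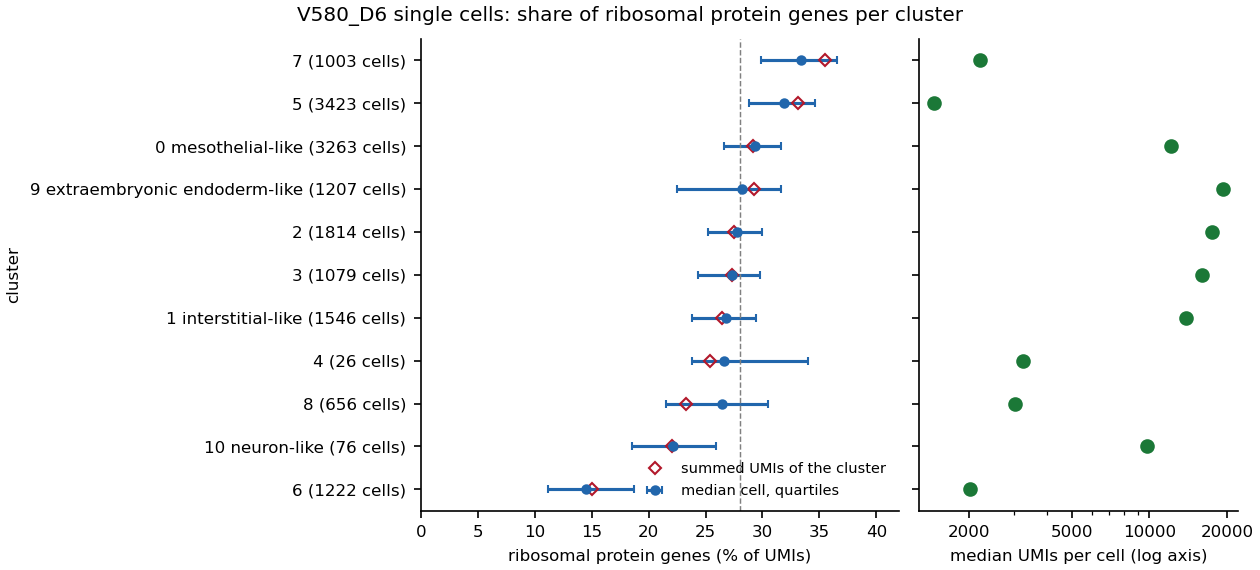
Share of ribosomal protein genes in the UMIs of each V580_D6 cluster (left, percent) and median UMIs per cell (right, log axis). Blue points and bars are the median cell and the quartiles, red diamonds are the summed UMIs of the cluster, and the dashed line is the share over all kept cells (28.0%). Cluster 6 is lowest at 15.0%, clusters 5 and 7 are highest at 33.1% and 35.5%, and these 3 have medians of 1460 to 2207 UMIs.

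Among the 80 members at 100 CPM or more, the highest cluster stood 2.03 to 2.83 times above the lowest, with a median ratio of 2.40. For the leading ones, Rps2, Rpl10, Rpl22 and Rps12, the lowest was cluster 6 and the highest cluster 7. Abundant members were Rpl13, a 60S protein, at 6562 CPM and Rps27a at 5927 CPM. The paralogs stood lower, at 683 CPM for Rpl22l1 beside 2026 CPM for Rpl22, 635 CPM for Rps27l beside 3581 CPM for Rps27, 118 CPM for Rpl7l1 and 13.47 CPM for Rpl39l beside 4047 CPM for Rpl39.

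Some members left the common level of a cluster, paralogs and canonical genes among them. Rpl22l1 was at 820 CPM in the mesothelial-like cells, 720 CPM in the interstitial-like cells, 350 CPM in the extraembryonic endoderm-like cells and 403 CPM in the neuron-like cells. In the extraembryonic endoderm-like cells it stood at 0.513 times its level over all cells, while Rpl22 there stood at 1.22 times, at 2463 CPM. Rps27l was at 564 CPM in the mesothelial-like cells, 682 CPM in the interstitial-like cells and 768 CPM in the extraembryonic endoderm-like cells. Rpl7 and Rpl3 were relatively high in the mesothelial-like cells (1.12 and 1.11 times) and Rpl3 low in the extraembryonic endoderm-like cells (0.841 times). Rps26, a 40S protein at the mRNA exit, was at 7062 CPM in cluster 7 and 6828 CPM in cluster 5, beside 3008 CPM in cluster 8, led by Rhox9 and Sct.

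Rpl10l and Rpl39l, the germ line paralogs, were rare but uneven. Rpl10l had 81 UMIs in all kept cells, or 0.497 CPM (exact Poisson 95% interval 0.395 to 0.618), and 6 of them lay in the 26 cells of cluster 4, which is led by Zscan4 genes and had 30.6 CPM (11.2 to 66.5). Rpl39l was at 71.3 CPM in cluster 4 (39.0 to 120) and at 13.47 CPM over all cells (12.9 to 14.05). A UMI of Rpl10l was seen in 23.1% of the cells of cluster 4, at a median of 3228 UMIs per cell, and in 0.483% of all cells, at a median of 9281. Rpl3l had 31 UMIs in all kept cells, or 0.190 CPM.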

How the data were processed

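RNA was measured by poly-A RNA-seq in 8 libraries of GSC stages and 31 libraries of induced and gonadal cells, and by 10x in 1 sample. 40 of 48 samples were used, and 10 value columns were used in no comparison. The authors deposited raw read counts per gene for the stages, which per the labels and methods came from Trim Galore, HISAT2 and featureCounts on mm10. The other bulk table holds FPKM values made by the authors, and RSEM stands in their processing notes, though not tied to a table. The 10x UMI counts were used as deposited.

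Counts were tested with edgeR 4.0.16 (TMM, quasi-likelihood, all 8 libraries) and FPKM with limma 3.58.1 on log2(FPKM + 1), for genes of at least 1 FPKM in 3 (days) or 2 (treatments) libraries. Fold changes of FPKM are on that scale and understate the change of low genes. CPM of the stages are on library totals without TMM. They can therefore differ from the fold changes in size and, for small changes, in sign. Days and treatments were fitted apart, and calls needed a Benjamini-Hochberg adjusted p below 0.05. Lengths came from the GENCODE annotation of GRCm38 and entered as a spline of 5 degrees of freedom per library. Cells with over 40% mitochondrial counts were removed, no doublet caller was run, and scanpy 1.11.5 clustered cells at resolution 0.5. Intervals cover counting error only.

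The members and lists were chosen with earlier results of these data known. Named genes were a fixed set of paralogs, their partners and well-known members, and in each comparison the 3 called members with the largest rise and the 3 with the largest fall, at 5 CPM or FPKM or more and without overlap of groups. A few genes are not reported here. Alternatives were other scalings, filters, pseudocounts, length, GC and lane terms, DESeq2 1.42.0, a replicate block and leaving out each library.

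On simulated counts for E13.5 against E12.5, edgeR recovered 73% of 100 genes changed 2-fold and 21% of 100 changed 1.5-fold, with 7 false calls among 15957 genes. With a simulated length trend it made 836 false calls among 15959 genes without the length term and 5 with it. That trend ran along the same length variable that the term fits, and no true change was tied to length. The simulation therefore cannot tell whether the length pattern in the data is technical. For V580_48h against Con_48h, limma recovered 99% at either size, with 5 false calls among 10218 genes.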

Additional observations from a re-analysis of the deposited data

Results flagged for a closer look

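The effect of AM580 or V580 against Con was compared between 48 h and 24 h with an interaction term in limma over all 10644 genes, as the log2 fold change at 48 h minus that at 24 h. For AM580, 6 of 82 members were called, where 35% of all genes were, and for V580 5 members, where 33.9% were, so that the members stood below the background. For Vc 0 members were called, where 2.9% of all genes were.

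Rps27l differed under both compounds, by -0.28 under AM580 (SE 0.07, limma adjusted p = 0.00597) and by -0.28 under V580 (adjusted p = 0.00675). Its fall was seen at 48 h, at 332 and 326 FPKM under AM580 against 417 and 408 FPKM in Con. Rps10 also differed under both, by -0.35 and by -0.67, but at under 5 FPKM, in a table where its level is far below that in the 10x data. Rpl22l1 differed by 0.39 under V580 (adjusted p = 0.00264) and its partner Rpl22 by -0.21 (adjusted p = 0.047). Rpl30 differed by -0.35 under V580 (adjusted p = 0.0196).

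Under AM580 the other differences were -0.39 for Rpl38, -0.28 for Rpl37, -0.25 for Rpl37a and -0.16 for Rpl7l1, with limma adjusted p between 0.0386 and 0.05. At each time the compounds were compared with the same 2 Con libraries.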

How the results depend on the processing

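The direction of the members' median held under the alternatives run for all comparisons except AM580_24h and Vc_24h, where leaving out a library turned it. Asking for at least 2-fold left 36 members (E13.5 against E12.5), 39 (E16.5 against E13.5), 14 (P6w against E16.5), 7 (P6w against E12.5), 1 (D6 against D4), 1 (Con_48h against Con_24h) and 1 (V580_48h), and 0 for D8, D10, D6 against E12.5_GC, V580_24h, Vc_48h and AM580_48h. The length term gave 35 calls and a median of 0.25 at E13.5, medians of -0.57 at E16.5 and -0.21 at P6w against E16.5, 30 calls at D8, 51 at D10, 29 with a median of -0.12 for D6 against E12.5_GC, 66 for Con_48h, 17 for Vc_24h, 27 for V580_24h, 26 for Vc_48h and 40 for AM580_48h. It turned Rpl10 (-0.077), Rpl7 (-0.028) and Rps6 (-0.022) at E13.5, Rpl39 (0.085) at E16.5, Rps6 (0.31) at P6w against E16.5, and Rpl38 (0.34) and Rps18 (0.045) for D6 against E12.5_GC. A lane term gave a median of -0.82 for E16.5 against E13.5 and 33 calls with a median of -0.36 for P6w against E12.5, and a GC term gave -0.39 for P6w against E16.5. Library totals, added after seeing the data, gave medians of 0.62, -0.68, -0.72 and -0.75 for the stage comparisons in the order above. Centring on the median of other genes gave 2 calls at D8, 16 at D10, 2 for Vc_48h and a median of 0.20 for Con_48h. One model of all 31 FPKM libraries gave 52, 23 and 53 calls for D6, D8 and D10, 10 for Con_48h, 4 for V580_48h and 0 for V580_24h, Vc_48h and AM580_48h. The 12 V580 libraries alone, also added after seeing the data, gave 73, 59 and 69 calls. No filter on low values gave 3 calls for V580_24h. With the length term, 49.9% of all genes were called at D8 and 44.1% at D10. At least 2-fold, 32.6% were called for P6w against E16.5, 30% for P6w against E12.5 and 3.18% for V580_48h. For the lane term, the centring and the model of all 31 libraries no share of all genes is given. Their counts of members cannot be set against the background. The causes of the shifts between alternatives were not tested.

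In the 10x cells, a mitochondrial limit of 10% gave 28.3% over all cells and 18.3% in the lowest cluster. Members kept among the variable genes gave 14.05% and 35.1% in the lowest and highest cluster, and resolution 1.0 gave 15.3% and 35.6%.

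Leaving out 1 library at a time gave these lowest and highest counts of calls and medians. They were 80 to 83 and 0.85 to 1.05 at E13.5, 79 to 84 and -1.05 to -0.81 at E16.5, 48 to 65 and -0.66 to -0.44 for P6w against E16.5, and 40 to 58 and -0.62 to -0.41 for P6w against E12.5. They were 16 to 19 and -0.39 to -0.35 at D6, 0 to 4 and 0.17 to 0.27 at D8, 7 to 33 and 0.34 to 0.45 at D10, and 27 to 77 and -0.61 to -0.20 for D6 against E12.5_GC. They were 25 to 49 and 0.080 to 0.21 for Con_48h, 1 to 18 and -0.15 to 0.024 for Vc_24h, 0 to 1 and -0.10 to 0.026 for AM580_24h, 0 to 29 and -0.16 to -0.042 for V580_24h, 0 to 1 and -0.11 to -0.097 for Vc_48h, 5 to 27 and -0.17 to -0.075 for AM580_48h, and 25 to 32 and -0.19 to -0.16 for V580_48h. The medians turned without library 2 of Con_24h (AM580) and without library 2 of Vc_24h (Vc). In groups of 2 the lone library left was assumed to vary like the other groups.

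Replicate numbers did not pair the samples. Correlations of deviations between libraries of the same number ran from -0.0403 to 0.0673 in the stages, from -0.431 to 0.386 in the days and from -0.424 to 0.209 in the treatments, and 6 of 8, 6 of 15 and 6 of 16 libraries correlated best with their own number. A replicate block moved the calls for V580_24h from 10 to 6 and no other count by over 1.5 times.

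With 2 or 3 libraries a group, small changes were often missed in simulation for the stages. FPKM tables hold no counts, and low members such as Rps10 and Rpl24 rest on few fragments there.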

Other observations

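Genes linked to ribosome synthesis or to the response to its disturbance (Myc, Mycn, Mtor, Rptor, Larp1, Rps6kb1, Eif4ebp1, Trp53, Mdm2 and Cdkn1a) were counted beside the members. The list mixes genes that favour and genes that restrain growth, so its counts and medians give no direction of ribosome synthesis. Calls are from edgeR for the stages and limma for FPKM. Of these 10, 2 were called higher and 6 lower at E13.5 against E12.5 (median log2 fold change -0.47), where 45.9% of all genes were called. The length term left 2 higher and 3 lower (-0.18). At E16.5 against E13.5, 4 were called higher and 3 lower (0.13), where 54.1% of all genes were called, but the length term gave 2 higher and 5 lower and turned the median to -0.29. At P6w against E16.5, 5 were called higher and 1 lower (0.40, 56.1% of all genes called), and 7 and 1 with the length term (0.74). At V580_D8 against V580_D6, 6 were called lower (-0.29, 41.1% of all genes called). At 48 h 5 were called lower and 2 higher under AM580 (-0.17, 57% of all genes called) and 7 lower under V580 (-0.26, 57.1%).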
